A study of Zea mays with 21 samples.

Results

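NAC transcription factors are plant-specific DNA-binding proteins named after NAM of petunia and ATAF and CUC of Arabidopsis. They carry a conserved NAC domain at the amino end, which binds DNA, and a variable carboxyl end that regulates transcription. In Arabidopsis, members of the family take part in the responses to drought, salt, abscisic acid and low oxygen, and in the formation of root and shoot meristems. The 3 NAC genes described here, Zm00001d000112, Zm00001d012527 and Zm00001d013003, were chosen by their IDs from the 23175 listed protein-coding genes (PCgenes), and all 3 passed the filter on low values (a mean above 1 TPM over all libraries). The study named them, with a further NAC gene that was not analysed here, as NAC genes that rose in these same libraries, so their rise over the unstressed root tips is given as a description, without a p-value, and is no independent evidence of its direction. No root or leaf marker could be matched to the IDs used here, so the tissue label was not checked against markers.

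Seedlings of the maize inbred line B73 were waterlogged at the second leaf stage, with standing water kept above the substrate. Root tips of the primary root were taken before waterlogging (WS_0h) and after 2, 4, 6, 8, 10 and 12 h of it (WS_2h to WS_12h), with 3 libraries for each of the 7 time points and 10 mixed root tips in each library. All 21 libraries came from one genotype with no other treatment, and WS_0h was the only group without standing water. Every plant was flooded at the same clock time, and the effects of waterlogging and of the time of day cannot be told apart. In whole root tips, a change in the RNA of each cell and a change in the number of cells that express a gene cannot be told apart either.

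Expression is given in TPM, which corrects for gene length and library size. The values of the listed PCgenes did not add up to 1 common total, but to between 534645 TPM (WS_8h replicate 1) and 689689 TPM (WS_2h replicate 1) per library. The paper states an approximate number of reads per sample, but the read count behind each TPM is not given here. Precision is given only by the spread of 3 libraries. The scale factors of the libraries (median of ratios to the geometric mean of each PCgene) lay between 0.965 and 1.06. WS_2h replicate 1 was nearest to a library of another time point. Over all tested PCgenes its r was 0.964 with a WS_8h library and 0.952 on average with the other WS_2h libraries. WS_4h replicate 1 had a similarly low mean r with its own time point (0.951), but its nearest library was of WS_4h. Replicates 1 and 3 of WS_10h were nearest to WS_12h libraries, and replicates 2 and 3 of WS_12h to WS_10h libraries. WS_2h replicate 1 held the lowest WS_2h value of all 3 NAC genes and of 44.8% of all tested PCgenes. The same held for 14 of 19 other stress-related genes selected from those named in the paper (73.7%). The values and tests of the NAC genes that involve WS_2h are therefore given with and without it, while shares of all tested PCgenes are from all 21 libraries. The limma fit used below shares 1 residual spread per gene, so this library also enters the SE of comparisons without WS_2h. For WS_8h against WS_6h, the SE of Zm00001d012527 was 0.39 with it and 0.24 without it. Such comparisons are given from all 21 libraries unless stated.

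All 3 NAC genes rose within 2 h of waterlogging, held high levels at WS_4h and WS_6h and fell at WS_8h. Zm00001d012527 and Zm00001d013003 rose again at WS_10h, and Zm00001d000112 had a higher mean there without passing the test. Zm00001d013003 was the most abundant of them throughout, and Zm00001d012527 rose by the largest factor, from the lowest starting level.

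Zm00001d000112 had 19.1, 26.1 and 15.4 TPM in the WS_0h libraries, 66.3, 128 and 107 TPM at WS_2h, and 89.1, 134 and 93.15 TPM at WS_4h. Its values were 116, 105 and 86.55 TPM at WS_6h, 35.4, 42.5 and 46.4 TPM at WS_8h, 88.4, 70.45 and 50.8 TPM at WS_10h, and 64.2, 66.1 and 59.1 TPM at WS_12h. All 18 libraries of waterlogged root tips lay above the 3 WS_0h libraries. The order of the means ran from WS_0h (20.2 ± 5.43 TPM, SD, n = 3) through WS_8h (41.4 ± 5.58 TPM), WS_12h (63.1 ± 3.64 TPM), WS_10h (69.9 ± 18.8 TPM), WS_2h (100.5 ± 31.4 TPM) and WS_6h (102.7 ± 14.99 TPM) to WS_4h (105 ± 24.7 TPM). The libraries of WS_0h and of WS_8h were each separated from those of the next higher time point, and from WS_12h upwards the libraries of neighbours in this order overlapped. Without WS_2h replicate 1 the WS_2h mean was 118 TPM, which made WS_2h and not WS_4h the highest time point of this gene.

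Zm00001d012527 was low before waterlogging, with 2.15, 5.23 and 4.27 TPM, and had 21.7, 89.1 and 89.5 TPM at WS_2h and 97.5, 99.7 and 92.9 TPM at WS_4h. It had 83.9, 89.98 and 99.4 TPM at WS_6h, fell back to 10.6, 19.9 and 14.7 TPM at WS_8h, and had 38.45, 56.4 and 49.04 TPM at WS_10h and 74.1, 44.9 and 61.04 TPM at WS_12h. WS_2h replicate 1, at less than any library of WS_4h, WS_6h, WS_10h or WS_12h, gave WS_2h the widest spread (66.8 ± 39.0 TPM, SD, n = 3), and the mean of the other two was 89.3 TPM. The WS_8h libraries, at a mean of 15.1 ± 4.68 TPM (SD, n = 3), lay below every other waterlogged library and above all WS_0h libraries. Above WS_10h (48.0 ± 9.03 TPM), the time points WS_12h, WS_2h, WS_6h and WS_4h (96.7 ± 3.46 TPM) followed in that order, each overlapping the one before it.

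Zm00001d013003 had 27.8, 53.02 and 73.3 TPM at WS_0h, 185, 449 and 332 TPM at WS_2h, and 316, 459.99 and 384 TPM at WS_4h. Its highest values came at WS_6h, with 511, 539 and 515 TPM, after which it had 88.3, 137 and 166 TPM at WS_8h, 364, 411 and 356 TPM at WS_10h and 329, 337 and 367 TPM at WS_12h. The WS_6h libraries (522 ± 15.02 TPM, SD, n = 3) lay above all others, and the WS_8h libraries (130.4 ± 39.3 TPM, SD, n = 3) below all other waterlogged libraries and above those of WS_0h (51.4 ± 22.8 TPM, SD, n = 3). WS_2h, WS_12h, WS_10h and WS_4h lay between, in that order of their means, and each overlapped the next. Without WS_2h replicate 1 the WS_2h mean was 391 TPM in place of 322 TPM, which placed it above WS_4h (387 TPM).

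**Figure D1:**
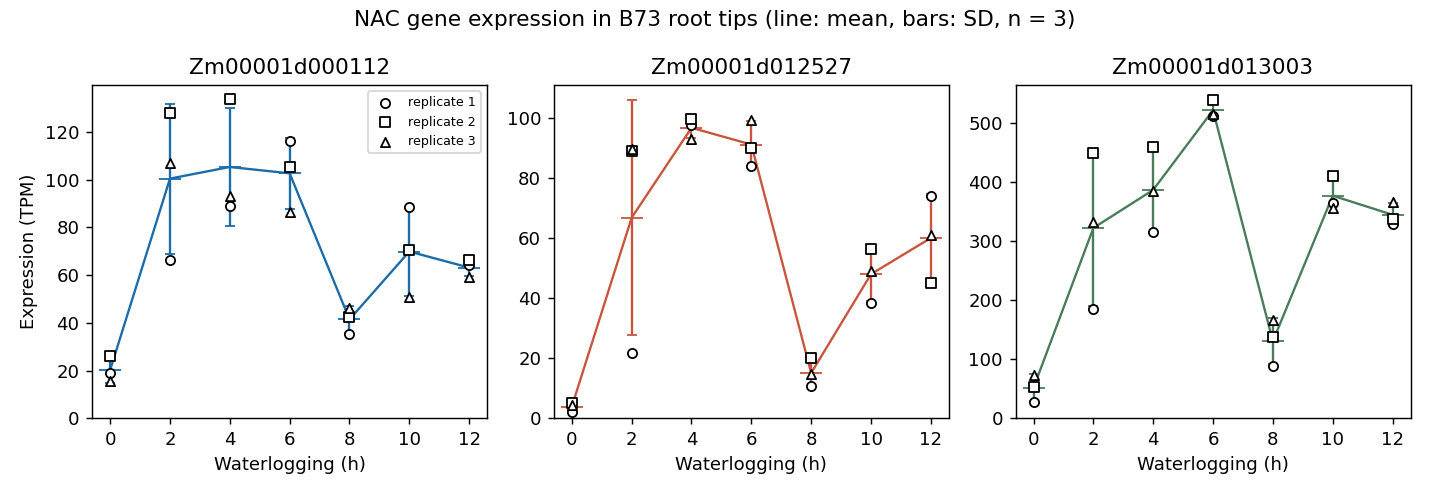
Expression in TPM of the 3 NAC genes (1 panel each, y axes from 0 and on different scales) against hours of waterlogging. Symbols are the 3 libraries of a time point, the line joins the means and bars are the SD (n = 3). Each panel shows the rise from WS_0h, the low WS_2h replicate 1 and the drop at WS_8h, where Zm00001d012527 has 10.6 to 19.9 TPM against 83.9 to 99.4 TPM at WS_6h.

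Set against all listed PCgenes, the NAC genes moved from unequal starting places into the upper range. Zm00001d012527 lay between ranks 14059 and 18850 of 23175 in the WS_0h libraries and between ranks 747 and 803 at WS_4h. Zm00001d000112 moved from ranks 4100 to 6670 at WS_0h to ranks 522 to 855 at WS_4h. At WS_6h, with mean TPM close to those of WS_4h, Zm00001d012527 lay between ranks 1076 and 1423 and Zm00001d000112 between ranks 1031 and 1236. A rank also depends on the levels of all other PCgenes. Zm00001d013003 was already between ranks 1376 and 3624 before waterlogging and reached ranks 105 to 166 at WS_4h and 116 to 149 at WS_6h. At WS_8h the ranks were 5274 to 8655 for Zm00001d012527, 2421 to 2801 for Zm00001d000112 and 588 to 984 for Zm00001d013003.

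The comparison with WS_0h asks how far waterlogged root tips differed from unstressed ones. It was made on log2(TPM + 1) with limma, in 1 fit of all 22783 PCgenes with a mean above 1 TPM, and a call needed an adjusted p (Benjamini-Hochberg) below 0.05 together with a log2 difference over 1. All 3 NAC genes were called up at each of the 6 time points, where 4.18% (WS_2h), 19.3% (WS_4h), 9.09% (WS_6h), 4.3% (WS_8h), 7.86% (WS_10h) and 8.06% (WS_12h) of tested PCgenes were called up, and 2.11% were called up at all 6. At WS_8h Zm00001d000112 lay close to the fold threshold (log2 difference 1.02) and missed it when 1 of 3 libraries was left out: replicate 1 of WS_0h (0.999), replicate 3 of WS_0h (0.85) or replicate 3 of WS_8h (0.94). Since the study chose the NAC genes on this comparison, nothing is read from that count. The 6 comparisons share the WS_0h libraries.

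At WS_2h the log2 difference from WS_0h was 2.24 ± 0.25 (SE) for Zm00001d000112, 3.6 ± 0.39 for Zm00001d012527 and 2.64 ± 0.31 for Zm00001d013003. Without WS_2h replicate 1 these were 2.51, 4.27 and 2.99. By the ratio of mean TPM, the highest level stood 5.21-fold over WS_0h for Zm00001d000112 (WS_4h), 24.9-fold for Zm00001d012527 (WS_4h) and 10.1-fold for Zm00001d013003 (WS_6h). The highest level of Zm00001d000112 was that of WS_2h, at 5.82-fold, when WS_2h replicate 1 was left out. At WS_8h the same ratios were 2.05, 3.88 and 2.54. The pseudocount of 1 TPM shrinks the changes of a gene as low as Zm00001d012527 at WS_0h: its log2 difference at WS_4h was 4.38 ± 0.39 (95% interval 3.55 to 5.21) and became 4.69 with a pseudocount of 0.1 TPM.

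Differences among the waterlogged time points do not use the WS_0h level. The study's choice of the genes rested on the waterlogged libraries as well as on WS_0h. The tests among waterlogged time points, including the steps below, are therefore not independent of that choice. An F test over WS_2h to WS_12h found differences for all 3 NAC genes (limma with Benjamini-Hochberg, adjusted p 4.60e-04 for Zm00001d000112, 9.50e-05 for Zm00001d012527 and 2.80e-04 for Zm00001d013003). This test was passed by 80.2% of the tested PCgenes, so passing it says little about the NAC genes, and all 3 also passed without WS_2h replicate 1.

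The separate steps showed where the levels moved. From WS_2h to WS_4h no NAC gene was called, while 17% of tested PCgenes were called up and 23.1% down (limma). The log2 differences were 0.09 for Zm00001d000112 (95% interval -0.42 to 0.61), 0.78 for Zm00001d012527 (-0.05 to 1.6) and 0.34 for Zm00001d013003 (-0.32 to 1.0), and 0 of the 3 had an unadjusted p under 0.05. WS_2h replicate 1 bears on these values: without it they were -0.18, 0.11 and -0.01. Without WS_2h replicate 2 or 3, which leaves replicate 1 as one of only 2 libraries, Zm00001d012527 was called (1.11 in both cases).

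From WS_4h to WS_6h no NAC gene was called either, against 18.4% of tested PCgenes up and 13.3% down (limma), and again 0 of the 3 had an unadjusted p under 0.05. The log2 difference of Zm00001d013003 was 0.45 (95% interval -0.21 to 1.11), with all WS_6h libraries above all WS_4h libraries. For Zm00001d000112 and Zm00001d012527 it was -0.02 (-0.54 to 0.49) and -0.09 (-0.91 to 0.74). WS_4h set against the mean of WS_2h and WS_6h gave 0.06 for Zm00001d000112, 0.43 for Zm00001d012527 and -0.06 for Zm00001d013003, with no call and 0 at an unadjusted p under 0.05, at a time point where 14.8% of tested PCgenes stood above their neighbours and 20.6% below (limma). Without WS_2h replicate 1 these values were -0.076, 0.10 and -0.23.

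Between WS_6h and WS_8h all 3 NAC genes fell, and each WS_8h library lay below each WS_6h library. Zm00001d012527 fell by 2.56 on the log2 scale (95% interval -3.38 to -1.73, limma with Benjamini-Hochberg, adjusted p 2.56e-04). Zm00001d013003 fell by 2.04 (-2.70 to -1.38, adjusted p 2.63e-04 by limma) and Zm00001d000112 fell by 1.29 (-1.80 to -0.77, adjusted p 0.0014 by limma). In all, 5.36% of tested PCgenes were called down in this step. As a share of the highest mean, WS_8h held 15.6% for Zm00001d012527, 25.0% for Zm00001d013003 and 39.3% for Zm00001d000112 (35.2% of its WS_2h mean without WS_2h replicate 1). All 3 calls held under each alternative setting and without any single library.

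From WS_8h to WS_10h Zm00001d013003 rose by 1.57 on the log2 scale (95% interval 0.91 to 2.23, limma with Benjamini-Hochberg, adjusted p 0.00486) and Zm00001d012527 by 1.63 (0.81 to 2.46, adjusted p 0.0157 by limma), with all WS_10h libraries above all WS_8h libraries. Of the tested PCgenes 2.8% were called up in this step. The call of Zm00001d012527 was lost without WS_8h replicate 1 (1.42), WS_10h replicate 2 (1.51) or WS_10h replicate 3 (1.61), with adjusted p between 0.0533 and 0.0898. Zm00001d000112 had a log2 difference of 0.71 (0.20 to 1.23, adjusted p 0.0948 by limma) and was not called, although its WS_10h libraries too lay above those of WS_8h. Without WS_2h replicate 1, which enters the residual spread, adjusted p was 4.10e-04 for Zm00001d012527 and 0.0464 for Zm00001d000112 (limma). Zm00001d000112 still missed the fold threshold there.

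The latest step brought no further call. No NAC gene was called between WS_10h and WS_12h (log2 differences -0.11, 0.31 and -0.13 for Zm00001d000112, Zm00001d012527 and Zm00001d013003, none of them with an unadjusted p under 0.05), and 0% of the 22783 PCgenes were called in either direction by limma, with 525 at an unadjusted p under 0.05. The 95% intervals of this step ran from -0.63 to 0.41 for Zm00001d000112, from -0.52 to 1.13 for Zm00001d012527 and from -0.79 to 0.53 for Zm00001d013003, so changes of up to these sizes were not excluded.

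**Figure D2:**
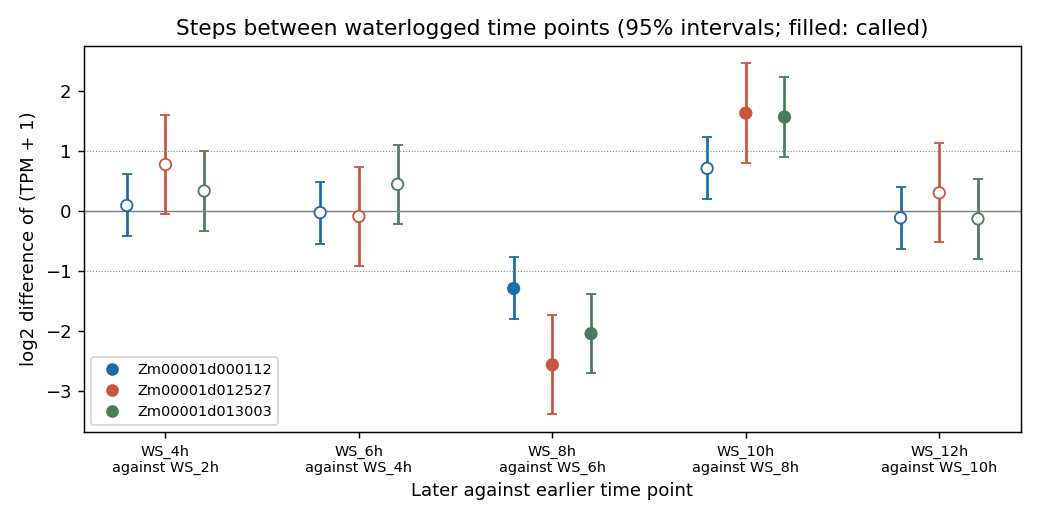
log2 differences of (TPM + 1) between neighbouring waterlogged time points for the 3 NAC genes, with 95% intervals from limma. Filled points were called (adjusted p under 0.05 and beyond the dotted lines at 1 and -1). The WS_8h against WS_6h values lie at -1.29, -2.56 and -2.04, and only this step and the next hold filled points.

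Against the mean of its neighbours WS_6h and WS_10h, WS_8h stood lower by -2.10 ± 0.34 (SE) on the log2 scale for Zm00001d012527, -1.80 ± 0.27 for Zm00001d013003 and -1.0 ± 0.21 for Zm00001d000112 (adjusted p from limma 4.09e-04, 2.19e-04 and 0.0034), where 4.17% of tested PCgenes were called lower. This comparison was set up when earlier results of these data had already shown low values at WS_8h. It also reuses the libraries of the steps above, so it is no independent support for the drop. The value of Zm00001d000112 sat at the fold threshold and was not called without WS_6h replicate 1 or 2, WS_8h replicate 1, or WS_10h replicate 1 or 2 (-0.99 to -0.89). The late level, WS_10h and WS_12h together, differed from WS_2h by -0.56 for Zm00001d000112 (95% interval -1.0 to -0.11), -0.08 for Zm00001d012527 (-0.80 to 0.63) and 0.25 for Zm00001d013003 (-0.32 to 0.82). None was called, 1 of the 3 (Zm00001d000112) had an unadjusted p under 0.05, and 3.17% of tested PCgenes were called higher and 2.64% lower (limma). Without WS_2h replicate 1 these differences were -0.83, -0.75 and -0.10. The first 2 of them then passed the p threshold (limma with Benjamini-Hochberg, adjusted p 0.0103 for Zm00001d000112 and 0.0351 for Zm00001d012527) but not the fold threshold.

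The NAC genes did not keep a fixed proportion to each other. Zm00001d013003 was above Zm00001d000112 and Zm00001d012527 in all 21 libraries, by 1.46 to 7.01 times and 3.24 to 17.2 times. Zm00001d000112 was above Zm00001d012527 in 17 of 21 libraries: in all WS_0h, WS_2h, WS_8h and WS_10h libraries, in 2 of 3 at WS_4h and WS_6h, and in 1 of 3 at WS_12h.

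The TPM ratio of 2 genes within a library does not depend on how that library was scaled. The differences of log2(TPM + 1) tested here are not fully free of scaling where a gene is low. Through the added 1 TPM this bears on Zm00001d012527 at WS_0h. Over the 7 time points, the within-library differences of log2(TPM + 1) varied for all 3 pairs (permutation test on F with 100000 resamples, Benjamini-Hochberg over 3 pairs). The adjusted p was 0.00393 for Zm00001d000112 and Zm00001d012527, 0.00705 for Zm00001d013003 and Zm00001d012527, and 0.00818 for Zm00001d013003 and Zm00001d000112. Over the 6 waterlogged time points alone, the permutation test gave adjusted p of 0.034, 0.034 and 0.00381 for the same pairs. The adjusted p without WS_2h replicate 1 (permutation test) was 9.00e-04, 9.00e-04 and 0.0161 over 7 time points and 0.0196, 0.00636 and 0.00636 over the 6 waterlogged ones. Over the waterlogged time points, both pairs with Zm00001d012527 missed the threshold of 0.05 without replicate 1 or 3 of WS_4h, replicate 1 or 3 of WS_8h or WS_12h replicate 3. Without WS_12h replicate 1 the pair with Zm00001d000112 missed it too, and without WS_10h replicate 1 the pair with Zm00001d013003 (adjusted p 0.0511 to 0.0976 in all these cases, permutation test). The pair of Zm00001d013003 and Zm00001d000112 passed without any single library.

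The mean TPM of Zm00001d000112 relative to Zm00001d012527 was 5.83 at WS_0h (mean of the ratios of 3 libraries). It was 1.09 at WS_4h and 1.14 at WS_6h, then 2.88 at WS_8h, and 1.10 again at WS_12h. Their difference on the log2 scale was larger at WS_8h than at WS_6h by 1.27 ± 0.27 (SE), with no overlap of the libraries. For Zm00001d013003 relative to Zm00001d000112 the mean ratio was 5.16 at WS_6h, 3.10 at WS_8h and 5.65 at WS_10h, and the change from WS_6h to WS_8h was -0.75 ± 0.20 on the log2 scale. For Zm00001d013003 relative to Zm00001d012527 the mean ratio fell from 13.4 at WS_0h to 4.00 at WS_4h and was 8.84 at WS_8h, and the change from WS_6h to WS_8h was 0.52 ± 0.22. Each of these 3 changes from WS_6h to WS_8h had p = 0.1 in an exact two-sided permutation test, the smallest value that 3 libraries against 3 can give.

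**Figure D3:**
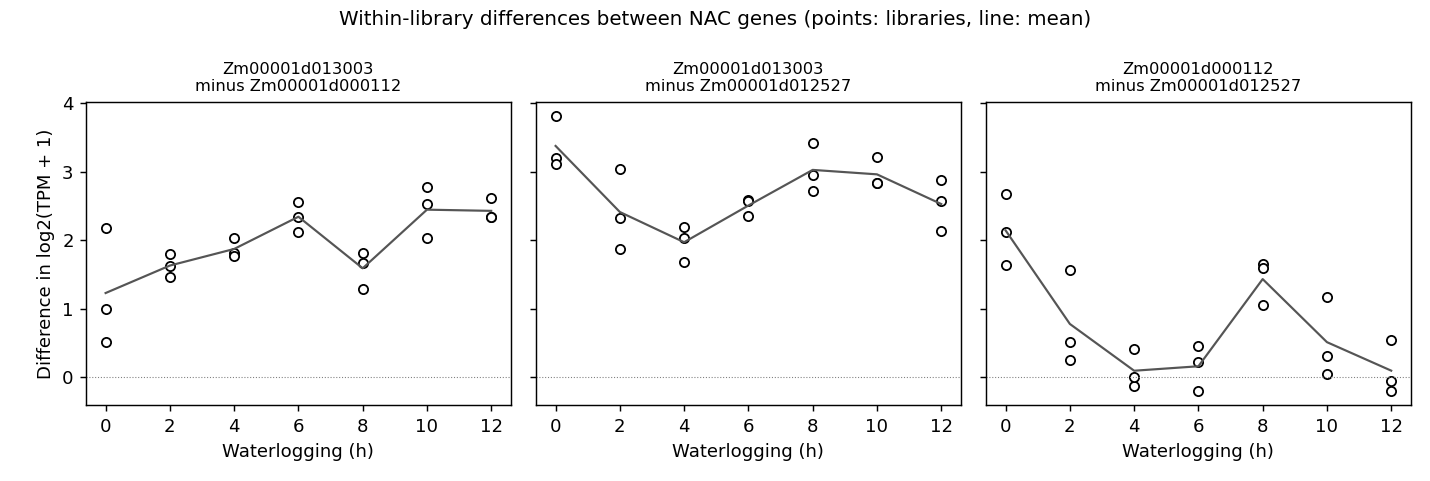
Within-library difference in log2(TPM + 1) between each pair of NAC genes against hours of waterlogging, with points for libraries and a line through the means of 3. Zm00001d000112 minus Zm00001d012527 (right) comes close to 0 at WS_4h, WS_6h and WS_12h and is 1.43 on average at WS_8h and 2.14 at WS_0h.

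Over the 21 libraries, Pearson r of log2(TPM + 1) was 0.962 between Zm00001d013003 and Zm00001d012527, 0.93 between Zm00001d000112 and Zm00001d012527 and 0.902 between Zm00001d013003 and Zm00001d000112, and without WS_2h replicate 1 it was 0.963, 0.938 and 0.907. Libraries of 1 time point share that time point, so these are descriptions. For deviations from the time point means, r was 0.747, 0.481 and 0.462 for the same pairs.

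Of 22780 other tested PCgenes, 91 had r above 0.9 with Zm00001d000112, 145 with Zm00001d012527 and 185 with Zm00001d013003. Closest to Zm00001d000112 were Zm00001d012494 (r = 0.97, with mean TPM of 17.4 at WS_0h, 79.8 at WS_4h and 35.5 at WS_8h), Zm00001d039993, Zm00001d005735, Zm00001d039377 and Zm00001d022314 (r from 0.957 to 0.967). Closest to Zm00001d012527 were Zm00001d027708 (r = 0.982, with mean TPM of 18.6 at WS_0h, 296 at WS_6h and 38.9 at WS_8h), Zm00001d022415, Zm00001d018342, Zm00001d026047 and Zm00001d038288 (r from 0.969 to 0.972). Closest to Zm00001d013003 were Zm00001d034160 (r = 0.976, with mean TPM of 14.2 at WS_0h, 140 at WS_6h and 30.4 at WS_8h), Zm00001d037724, Zm00001d017622, Zm00001d036787 and Zm00001d028930 (r from 0.968 to 0.973). These 15 values of r, taken without WS_2h replicate 1, ran from 0.957 to 0.982. No gene names for these 15 PCgenes were at hand.

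The drop at WS_8h was also measured in a selection of other genes that the study named. The paper names more genes of these classes, such as further glycolysis genes and ACC oxidases, which were not included. Of 19 other transcription factor, fermentation, glycolysis and hormone genes named in the paper, 10 were called down and 0 up between WS_6h and WS_8h, a step in which 5.36% of tested PCgenes were called down and 2.19% up (median log2 difference -1.09, against 0.03 over all tested PCgenes, limma). The MYB gene Zm00001d035918 rose by 0.59 and passed the p threshold (limma with Benjamini-Hochberg, adjusted p 0.0251) but not the fold threshold. Of the 10, hexokinase7 (Zm00001d037689), which phosphorylates glucose at the entry of glycolysis, fell by 2.11, and the AP2-EREBP factor Zm00001d031728 fell by 2.23. The other AP2-EREBP gene Zm00001d040651 had a log2 difference of -0.71 and was not called, as it passed the p threshold (adjusted p 0.0365 by limma) but not the fold threshold. The pyruvate decarboxylase genes Zm00001d028759 and Zm00001d010588, whose enzyme makes acetaldehyde in ethanol fermentation, fell by 1.14 and 1.59. Of 4 bZIP genes, Zm00001d005962, Zm00001d039065 and Zm00001d041920 fell by 1.14, 1.53 and 1.65, and Zm00001d017911 (-0.45) was not called. Of 4 bHLH genes, 1 was called (Zm00001d042263, -1.09), and the others had log2 differences of -0.78 to -0.46. These others passed the p threshold (adjusted p 0.0206 to 0.0455 by limma) but not the fold threshold. The families were not compared by a test. From WS_8h to WS_10h, 6 of the 19 were called up, among them hexokinase7 (1.48) and Zm00001d031728 (1.27). Whether the NAC genes fell more than these genes was not tested.

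Of the 480 PCgenes called up against WS_0h at all 6 time points, 250 (52.1%) were called down between WS_6h and WS_8h and 141 (29.4%) also up from WS_8h to WS_10h, or 1.1% and 0.619% of all tested PCgenes. All 3 NAC genes belong to the 250, Zm00001d000112 through its WS_8h call that 3 single libraries decide, and Zm00001d012527 and Zm00001d013003 also to the 141. For the 480 as a whole, the median log2 difference between WS_6h and WS_8h was -1.04, against -1.09 for the 19 other named genes. These calls share libraries with the choice of the 480, so the shares are descriptions.

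**Figure D4:**
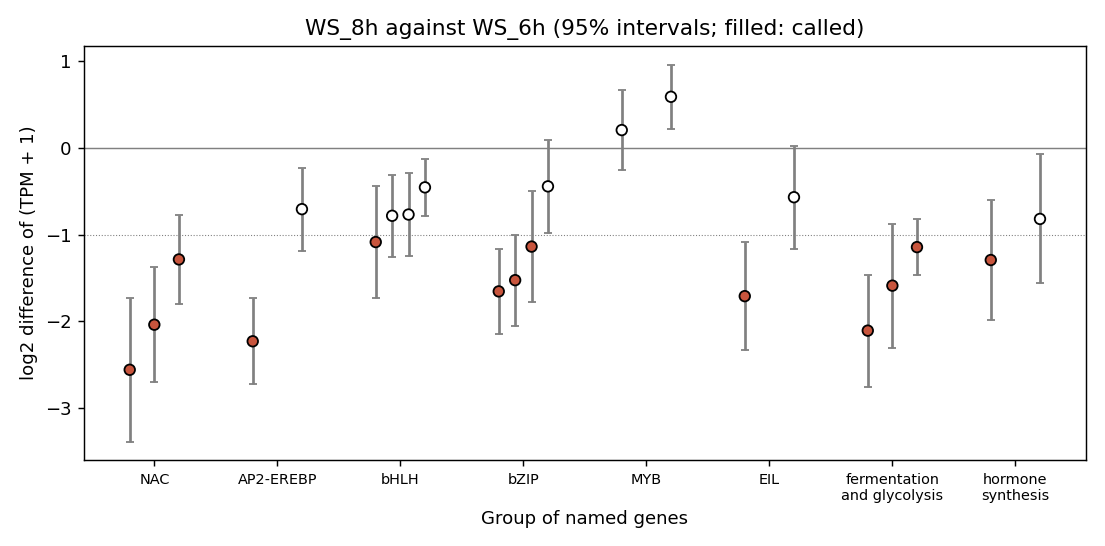
log2 difference of (TPM + 1) at WS_8h against WS_6h for the 3 NAC genes and 19 other named genes by group, with 95% intervals from limma and filled points for calls. The NAC genes lie between -2.56 and -1.29, and 10 of the other 19 are filled.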

How the data were processed

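Per the labels and the paper, the authors checked reads with FastQC, trimmed them, aligned them to B73 RefGen_v4 with HISAT2 2.0.5, counted them per gene with featureCounts and deposited TPM. The paper gives a filter on an average above 1 TPM. It also describes the expressed genes as detected in at least 1 sample. Of the listed PCgenes, 392 had a mean of 1 TPM or less over the 21 libraries. TPM keep no read counts, and counting errors were not computed. The separately normalized lncRNA values were not used.

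TPM above 1 on average (22783 of 23175 PCgenes) were taken as log2(TPM + 1) and fitted in R 4.3.3 (limma 3.58.1) with 1 mean per time point, a mean-variance trend and no replicate block. P-values were adjusted by Benjamini-Hochberg over all tested PCgenes. Within-library ratios and correlations were computed in Python 3.11.15 (scipy 1.17.1, pandas 2.3.3, numpy 2.4.6). The limma fit was tested on simulated data with normal noise, in which only 200 PCgenes changed, at WS_8h against WS_6h. These were drawn from PCgenes with a mean log2(TPM + 1) above 3, so recovery at lower levels was not tested. The fit recovered 59 of 67 changed by 1.5 on the log2 scale, 64 of 67 by 2 and 66 of 66 by 3, with 3 false calls.

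Named genes are the 3 NAC genes, the 5 PCgenes closest to each by Pearson r and 19 other genes. These 19 were selected from the text of the paper, which names more. The NAC genes, lists and tests were chosen with earlier results of these data known. Alternatives were a pseudocount of 0.1 TPM, no filter or a filter above 5 TPM, median-ratio rescaling, no trend, a replicate block, fits of only the time points compared, and leaving out each library. Leaving out libraries in the pair tests over the 6 waterlogged time points, and WS_2h replicate 1 in the correlations, was added after seeing the data. The reference table used here pairs no entry with these IDs. A family-wide list of NAC genes, tissue markers, map positions, sequences and promoter motifs were therefore not used here.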

Additional observations from a re-analysis of the deposited data

Results flagged for a closer look

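Levels differed between neighbouring waterlogged time points, by limma's test of the difference itself, in 5 of the 15 combinations of NAC gene and step. No unstressed root tips were sampled at these hours. From WS_6h to WS_8h the log2 difference was -1.29 for Zm00001d000112, -2.56 for Zm00001d012527 and -2.04 for Zm00001d013003, in a step where 5.36% of tested PCgenes were called down. From WS_8h to WS_10h it was 1.63 for Zm00001d012527 and 1.57 for Zm00001d013003, where 2.8% were called up. Groups of 3 libraries were not tested for single outlying libraries here, the low WS_2h replicate 1 included.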

How the results depend on the processing

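The number of calls stayed within 17 to 18 of 18 against WS_0h, 4 to 6 of 15 for the steps, 2 to 3 of 6 against the neighbours, 0 of 3 for the late time points against WS_2h and 3 of 3 for the F test under all 28 alternatives. The exception among the 18 was Zm00001d000112 at WS_8h, not called without WS_0h replicate 1 or 3 or WS_8h replicate 3 (0.999, 0.85 and 0.94). The tests of the 3 gene pairs over 7 time points kept adjusted p between 1.20e-04 and 0.0216 with a pseudocount of 0.1 TPM, with the block and without any single library (permutation test). Over the 6 waterlogged time points, leaving out libraries (added after seeing the data) gave adjusted p of 0.0196 to 0.0899 for Zm00001d000112 and Zm00001d012527, 0.00636 to 0.0976 for Zm00001d013003 and Zm00001d012527, and 6.30e-04 to 0.0106 for Zm00001d013003 and Zm00001d000112 (permutation test). The replicate block changed no call. Replicate numbers were not treated as pairs: mean r of deviations was 0.05 for libraries of the same number and -0.03 for other numbers. Signs turned only for values that were not called, and only when single libraries were left out. For Zm00001d000112 the range over left-out libraries was -0.18 (without WS_2h replicate 1) to 0.29 for WS_4h against WS_2h, -0.13 to 0.16 (without WS_4h replicate 2; 0.094 without WS_6h replicate 3) for WS_6h against WS_4h, -0.32 to 0.075 (without WS_10h replicate 1) for WS_12h against WS_10h, and -0.12 (without WS_4h replicate 2; -0.076 without WS_2h replicate 1) to 0.17 for WS_4h against its neighbours. For Zm00001d013003 it was -0.015 (without WS_2h replicate 1) to 0.62 for WS_4h against WS_2h, -0.23 to 0.087 (without WS_2h replicate 2; 0.082 without WS_4h replicate 1) for WS_4h against its neighbours, and -0.10 (without WS_2h replicate 1) to 0.53 for the late time points against WS_2h. For Zm00001d012527 the last comparison had a range of -0.75 to 0.25, the lowest without WS_2h replicate 1 and the highest without replicate 3 of WS_2h (also 0.25 without its replicate 2), and gave 0.012 without WS_12h replicate 2.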

Other observations

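Among the 19 other named genes, the profile over 21 libraries closest to a NAC gene was that of hexokinase7 (Zm00001d037689). Its Pearson r was 0.962 with Zm00001d013003 and 0.955 with Zm00001d012527. The AP2-EREBP factor Zm00001d031728 followed (0.949 with Zm00001d012527). For Zm00001d000112 the closest of the 19 was Zm00001d031728 (r = 0.925), and hexokinase7 had r = 0.852. The mean level of hexokinase7 was 16.8 TPM at WS_0h, 392 TPM at WS_6h, 90.7 TPM at WS_8h and 256 TPM at WS_10h. The MYB genes Zm00001d011669 and Zm00001d035918 had negative r with all 3 NAC genes, from -0.81 to -0.61. NCED5 (Zm00001d018819), which makes a precursor of abscisic acid, had a mean of 5.71 TPM at WS_0h and of 0.183 to 2.49 TPM at the waterlogged time points, with r of -0.42 to -0.35. For the ACC synthase gene Zm00001d026060, whose enzyme makes the precursor of ethylene, r was 0.301 to 0.44. All genes share the same libraries, so these values are descriptions.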
